A study of Homo sapiens with 4 samples.

Results

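The genes described here are COA3 and 9 other assembly factors of cytochrome c oxidase, namely COA1, COX10, COX11, COX14, COX15, COX17, SCO1, SCO2 and SURF1. COA3 was chosen by its gene values in the knockdown comparison itself, where it was nearly lost from both knockdown libraries, so its values are given as a description with no test. The other 9 genes were chosen by their function, but with earlier results of these data known. These are 10 of 47251 genes and 45 of 180500 transcripts in the tables. AGS cells derive from a human gastric adenocarcinoma. The data are 2 RNA sequencing libraries from AGS cells carrying 1 short hairpin RNA (shRNA) against MFAP2, with the genotype MFAP2 silencing (sh-MFAP2 replicates 1 and 2), and 2 from AGS cells carrying a scrambled shRNA (control replicates 1 and 2). All 4 libraries came from lentivirally infected, drug-selected cells, and each group was 1 stable line made with 1 hairpin. The labels do not say whether replicates were separate cultures, so p-values measure only the spread between these libraries, which may be technical.

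Cytochrome c oxidase, or complex IV, is the enzyme of the mitochondrial inner membrane that passes electrons from cytochrome c to oxygen. Its catalytic core is encoded by the mitochondrial genes MT-CO1, MT-CO2 and MT-CO3, and its other subunits come from the nucleus. Assembly factors are not part of the finished enzyme. They hold the newly made MT-CO1 protein, make heme a, deliver copper to the core and bring the subunits together.

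The short stretches below were picked to show what several of these genes share at their starts. The letters CCGGAAGT, the core of the motif bound by GABPA (an activator of many genes of respiration), were searched on both strands from 250 bases before to 50 bases after each RefSeq start on GRCh38.p14, without other motifs. Promoters of 8 of the 10 genes were matched by symbol. The motif was present in 5 of these 8 genes (62.5%), counting a gene with a match at any of its starts. Counted by single promoter and not by gene, the motif was present in 4.11% of 34943 promoters of the same length. It was chosen after the sequences had been seen, and a match is a description and not a binding site. Each line holds 30 bases on the strand of the gene, 5′ to 3′, with the match in capitals, which for SCO1 lies on the opposite strand.
COA1, chr7:43729527-43729556, minus strand: agcagccgacgCCGGAAGTctctactgctc
COX10, chr17:14069474-14069503, plus strand: gagcccgcccgCCGGAAGTggcggcccgga
COX15, chr10:99732117-99732146, minus strand: cgctgcccgacCCGGAAGTgcttctctttt
COX17, chr3:119677378-119677407, minus strand: tagagcgactgCCGGAAGTgactgcggacg
SCO1, chr17:10697559-10697588, minus strand: gactccttccgACTTCCGGaggaagcggaa
COX10 held a second match at -119 from its start, and COX17 has a second annotated start without one. The letters were not in the windows of COA3, COX14 or SURF1.

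COA3 starts back to back with CNTD1, a gene on the opposite strand, and the 80 bases between the RefSeq starts of the pair (68.8% G or C) are printed here because they lie next to the start of the gene that was nearly lost.
COA3 to CNTD1, chr17:42798705-42798784, minus strand: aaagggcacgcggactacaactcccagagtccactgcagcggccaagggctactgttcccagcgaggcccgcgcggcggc

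COA3 encodes a small inner-membrane protein that binds newly made MT-CO1 together with COX14 and supports its synthesis. Its values were 0.184 FPKM in sh-MFAP2 replicate 1 and 0.112 FPKM in replicate 2, and 29.3 FPKM in control replicate 1 and 25.6 FPKM in replicate 2. FPKM are fragments scaled by transcript length and library depth. The groups were far apart, with both knockdown libraries close to 0 and both controls high. The means were 0.148 ± 0.0514 FPKM (SD, n = 2) in sh-MFAP2 and 27.5 ± 2.63 FPKM (SD, n = 2) in the controls. The difference was -4.63 on the scale of log2(FPKM + 1), which understates changes towards 0. Of the 9873 genes whose mean reached 1 FPKM, 2 had a lower difference. This rank follows from how COA3 was chosen, and COA3 reached that mean only through the controls. From the spacing of low values, the COA3 values in sh-MFAP2 would stand for about 8.70 and 4.71 counting units. Those in the controls would stand for about 1343 and 1487. These are rough estimates, since the knockdown figures are not whole numbers and the spacing came from transcripts longer than that of COA3. With no read counts, the number of reads behind these values could not be checked.

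**Figure D1:**
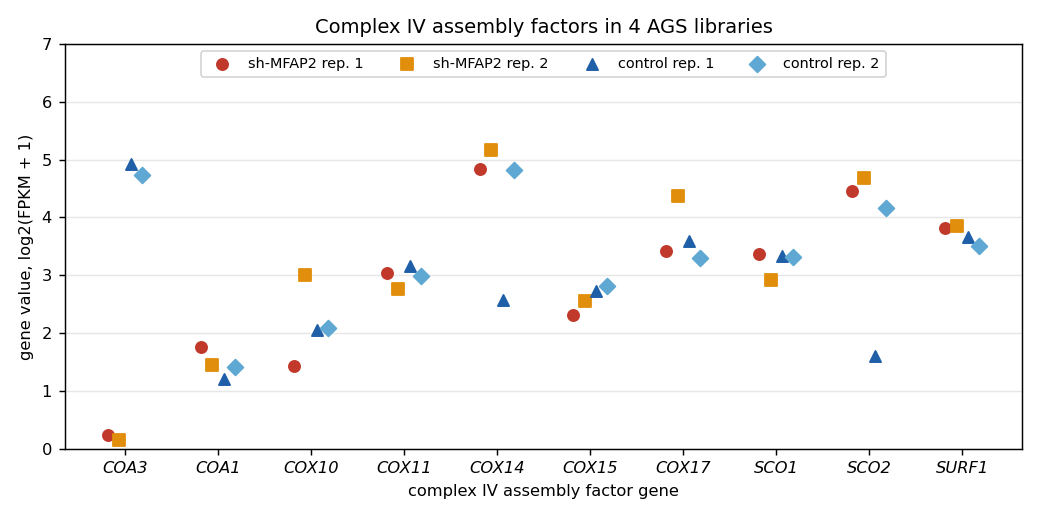
Gene values of the 10 assembly factors as log2(FPKM + 1) on the vertical axis, with 1 point for each of the 4 AGS libraries. COA3 lies near 0 in both sh-MFAP2 libraries and above 25 FPKM in both controls, while COX14 and SCO2 are low only in control replicate 1.

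In GENCODE 29 the COA3 gene spans positions 42795147 to 42798704 of chromosome 17 (GRCh38), minus strand. The table lists 1 transcript for it, ENST00000328434, protein-coding, with 2 exons and 771 bases, from 42797634 to 42798704. The gene value of COA3 is that transcript's value. The annotation also holds ENST00000586680, a transcript marked for nonsense-mediated decay that shares most of the first exon and was not listed in the table. No other GENCODE 29 gene had a transcript that matched the COA3 transcript at 90% identity or more over at least 100 bases. Sequence outside annotated transcripts was not searched.

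Gene values around COA3 were as follows. CNTD1, on the other side of the shared start region, was low in all libraries, at 0.577 and 0.189 FPKM after knockdown and 0.476 and 0.266 FPKM in the controls. Its transcripts differed in pattern. ENST00000588408, which starts next to COA3, was at 0.0074 and 0 FPKM after knockdown against 0.390 and 0.222 FPKM in the controls. That transcript was lower after knockdown, as COA3 was, but at a low level. ENST00000315066 was at 0.727 and 0.241 FPKM after knockdown against 0.257 and 0.141 FPKM in the controls. WNK4, a kinase gene of ion transport whose end overlaps the longer COA3 transcript on the opposite strand, was at 0.0485 and 0.0782 FPKM after knockdown and 0.0200 and 0.0426 FPKM in the controls. VPS25, a subunit of an endosomal sorting complex and the next gene on the far side of WNK4, was at 23.0 and 19.9 FPKM after knockdown and 18.9 and 19.4 FPKM in the controls.

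**Figure D2:**
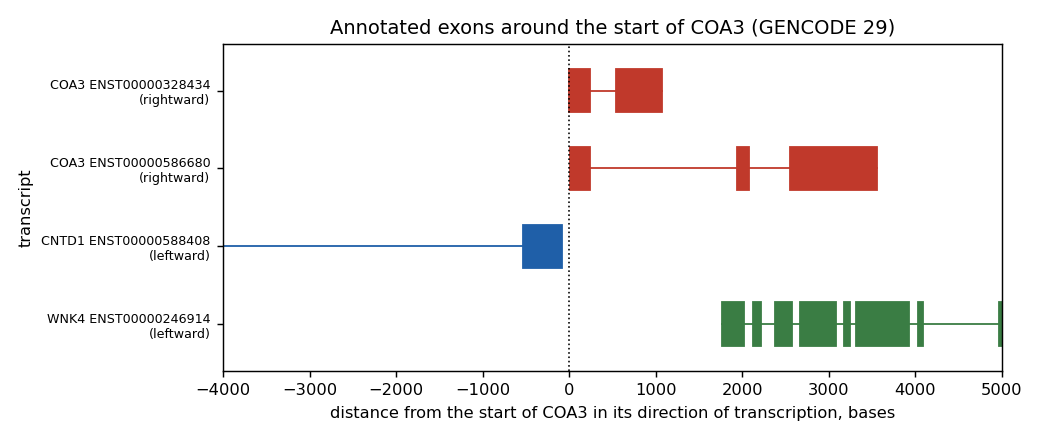
Exons (boxes) of COA3, CNTD1 and WNK4 transcripts in GENCODE 29 against distance in bases from the start of COA3, in its direction of transcription. The listed COA3 transcript ends before WNK4 begins to overlap, and CNTD1 runs away from COA3 on the opposite strand.

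Values near 0 beside high ones were not confined to COA3. Among the 9873 genes, 203 (2.06%) had at least 1 library under 10% of the highest, with the highest at 5 FPKM or more. SCO2 was the other assembly factor of this kind. The mitochondrially encoded protein genes, which every respiring cell uses, were also affected: 8 of 13 were listed at 0 in all 4 libraries, and MT-CYB, the cytochrome b gene, was at 0 and 35.9 FPKM after knockdown and 24.6 and 0.000041 FPKM in the controls. A value of 0 in this table is therefore given only as listed. The part of such listed zeros in the values of COA3 was not tested.

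The 5 genes whose centred log2(FPKM + 1) profile over the 4 libraries lay nearest to that of COA3, out of 9872 compared, were CSNK2A3, MT-TF, EID2, MT-TP and UBBP4, at Euclidean distances of 0.598, 0.642, 0.794, 1.10 and 1.47. CSNK2A3, a close copy of a casein kinase subunit gene, had 0 in each knockdown library and 15.7 and 15.4 FPKM in the controls. EID2, an inhibitor of differentiation, likewise had 0 in each and 15.8 and 11.5 FPKM in the controls. Of the mitochondrial tRNA genes, MT-TF was at 0 and 0.00709 FPKM against 34.6 and 38.4 FPKM, and MT-TP at 20.6 and 9.70 FPKM against 193 and 231 FPKM. UBBP4, a ubiquitin pseudogene, was at 0.0277 and 0.000042 FPKM against 7.54 and 9.05 FPKM. As for COA3, the means of CSNK2A3, EID2, MT-TF and UBBP4 reached 1 FPKM only through the controls. Sequence shared by CSNK2A3 or UBBP4 with related genes was not examined here. None of the other 9 assembly factors was among the 5 nearest genes. The closest, COX15, ranked 1540 at a distance of 4.30, and SCO2 was the farthest of the 9 at rank 9821.

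The question the remaining values address is whether other assembly factors moved with the knockdown. All 9 had a mean above 1 FPKM and were tested with limma on log2(FPKM + 1), with Benjamini-Hochberg adjustment over all 9873 genes. None was called at p under 0.01 and adjusted p under 0.05, a rule that called 27 genes (0.273%) in all. None had an unadjusted p under 0.05 either, compared with 12.3% of all genes, and the smallest adjusted p was 0.415, for COX15. That count of 0 did not hold in every fit that left out a library, and the share over all genes moved as well. Differences were above 0 for 6 genes and below 0 for 3, with a median of 0.25 on the log2 scale, compared with -0.05 over all genes tested. Of those, 4151 were above 0 and 5722 below. The groups did not overlap for 4 genes that were higher in sh-MFAP2 (COA1, COX14, SCO2 and SURF1; 17.5% of all genes) and for 1 that was lower (COX15; 31.4% of all genes).

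COX14 is the partner of COA3 on newly made MT-CO1, and COA1 acts in early steps of complex IV and complex I assembly. COX14 was at 27.6 and 35.0 FPKM after knockdown, and in the controls at 4.97 FPKM (replicate 1) and 27.3 FPKM (replicate 2). Control replicate 1 was far below the other 3 libraries, and control replicate 2 lay just under sh-MFAP2 replicate 1. The log2 difference was 1.30 (95% interval -1.06 to 3.67, limma adjusted p = 0.548). Without control replicate 1 it was 0.18, and without control replicate 2 it was 2.42, so its size rested on the control libraries. COA1 was at 2.39 and 1.74 FPKM after knockdown and at 1.31 and 1.67 FPKM in the controls, where the nearest pair of libraries from different groups differed by less than the spread within either group. Its log2 difference was 0.30 (95% interval -0.18 to 0.77, limma adjusted p = 0.510). Neither gene passed the test in either direction.

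COX10 and COX15 make heme a in succession, COX10 by adding a farnesyl tail to heme b and COX15 by oxidising the product. COX15 was at 3.99 and 4.85 FPKM after knockdown and at 5.61 and 6.07 FPKM in the controls. Both knockdown libraries were below both controls, by a log2 difference of -0.34 (SE 0.133, 95% interval -0.72 to 0.04, limma adjusted p = 0.415). COX10 was at 1.68 FPKM in sh-MFAP2 replicate 1 and 7.01 FPKM in replicate 2, and at 3.16 and 3.27 FPKM in the controls. The knockdown libraries thus held both its lowest and its highest value, on either side of controls that nearly coincided. The log2 difference of 0.14 had a 95% interval of -1.52 to 1.80 (limma adjusted p = 0.930), and without sh-MFAP2 replicate 2 it was -0.65, while without sh-MFAP2 replicate 1 it was 0.93.

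SURF1, which takes part in placing heme a in MT-CO1, was at 13.1 and 13.4 FPKM after knockdown and at 11.6 and 10.3 FPKM in the controls. The knockdown libraries were close together and above both controls, with a log2 difference of 0.25 (SE 0.113, 95% interval -0.07 to 0.57, limma adjusted p = 0.455). SURF1 starts next to SURF2 on the opposite strand and overlaps its range, and SURF2 was at 26.6 and 44.5 FPKM after knockdown and at 31.5 and 31.2 FPKM in the controls. The highest library of SURF2 was sh-MFAP2 replicate 2, in which SURF1 was barely above replicate 1.

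COX17, SCO1, SCO2 and COX11 form the copper route. COX17 carries copper in the space between the mitochondrial membranes, SCO1 and SCO2 deliver it to the MT-CO2 centre, and COX11 delivers it to the centre in MT-CO1. COX17 was at 9.69 and 19.6 FPKM after knockdown and at 11.1 and 8.88 FPKM in the controls. Only sh-MFAP2 replicate 2 stood apart, and the log2 difference of 0.44 (95% interval -0.623 to 1.504, limma adjusted p = 0.625) became -0.03 without it. SCO1 was at 9.37 and 6.60 FPKM after knockdown and at 9.04 and 8.98 FPKM in the controls. COX11 was at 7.21 and 5.79 FPKM after knockdown and at 7.92 and 6.92 FPKM in the controls. In both genes the groups overlapped and sh-MFAP2 replicate 2 was lowest. The log2 difference was -0.17 for SCO1 (95% interval -0.71 to 0.37, limma adjusted p = 0.700) and -0.17 for COX11 (95% interval -0.60 to 0.26, limma adjusted p = 0.638), and that of SCO1 was 0.05 without sh-MFAP2 replicate 2.

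SCO2 was at 21.1 and 24.7 FPKM after knockdown, and in the controls at 2.04 FPKM (replicate 1) and 16.9 FPKM (replicate 2). As for COX14, a single control library was far below the rest. The log2 difference was 1.69 (95% interval -0.98 to 4.37, limma adjusted p = 0.510). Without control replicate 1 it was 0.41, and without control replicate 2 it was 2.97. SCO2 is overlapped on the opposite strand by the antisense gene U62317.2, which was listed at 1.11 FPKM in control replicate 1 and at 0 in the other 3 libraries. The strand setting of the authors' estimation is not given in the sources used here, so reads of SCO2 and of its antisense partner may not be told apart. Most of the SCO2 sequence is also carried by a second SCO2 identifier in GENCODE 29, which was not among the deposited gene values.

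In the controls, COA3 had the highest mean of the 10 genes, at 27.5 FPKM, a value per length that can be compared between genes. COX14 followed at 16.1 ± 15.8 FPKM (SD, n = 2), then SURF1 at 10.98 ± 0.921 FPKM, COX17 at 9.99 ± 1.58 FPKM, SCO2 at 9.48 ± 10.5 FPKM and SCO1 at 9.01 ± 0.0465 FPKM. From COA3 to SCO1, neighbours in this order lay within their spread. COX11 at 7.42 ± 0.712 FPKM, COX15 at 5.84 ± 0.328 FPKM, COX10 at 3.22 ± 0.0838 FPKM and COA1 at 1.49 ± 0.251 FPKM followed, each separated from its neighbour above by more than either SD. In sh-MFAP2, COX14 had the highest mean, 31.3 ± 5.21 FPKM, and COA3 the lowest.

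Single transcripts were compared in the same way over the 22312 transcripts with a mean of at least 1 FPKM. Of 44 listed transcripts of the 9 genes, 16 were tested and none was called, at a rule that called 0 transcripts in all (0%). None had an unadjusted p under 0.05, compared with 7.64% of all transcripts, and the smallest adjusted p was 0.658. That count of 0 did not hold in every fit that left out a library, and the share over all transcripts moved as well. The median log2 difference of the 16 was 0.09, compared with -0.04 over all transcripts tested. The low value of SCO2 in control replicate 1 lay in its leading transcript ENST00000395693, which was at 26.4 and 32.5 FPKM after knockdown, 0.259 FPKM in control replicate 1 and 21.6 FPKM in control replicate 2. Its second transcript, ENST00000543927, had its highest value in control replicate 1, at 1.67 FPKM, compared with 1.24, 0.713 and 0.519 FPKM in the others. The low value of COX14 lay in ENST00000550487, at 39.0 and 47.6 FPKM after knockdown and 6.72 and 38.3 FPKM in the controls.

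**Figure D3:**
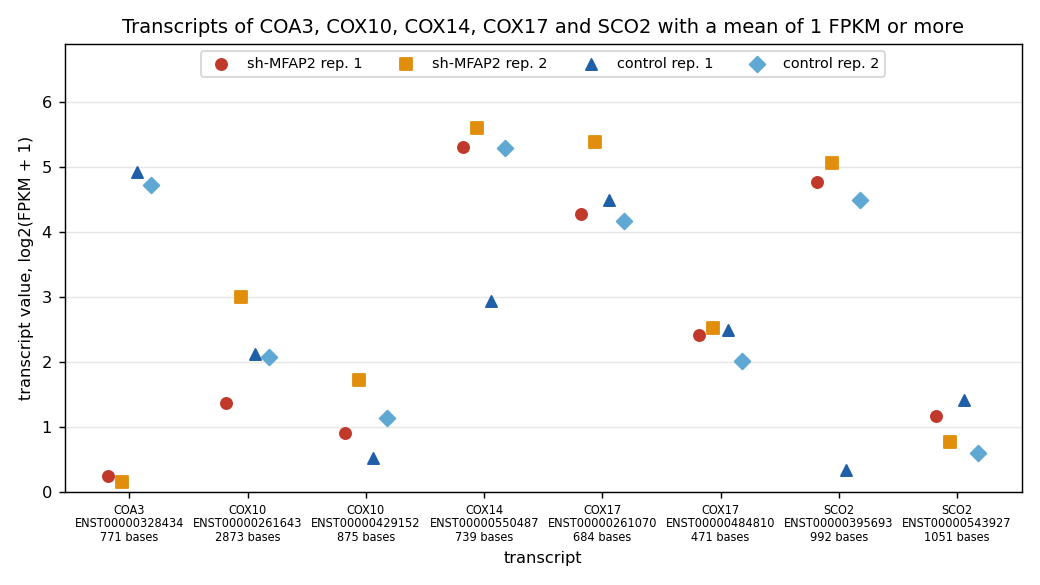
Values of 8 transcripts of COA3, COX10, COX14, COX17 and SCO2 as log2(FPKM + 1), with 1 point per library and the transcript length in bases under each name. The leading SCO2 transcript is at 0.259 FPKM in control replicate 1 and above 21 FPKM in the other 3 libraries, while the single COA3 transcript is near 0 in both sh-MFAP2 libraries.

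Among the other transcripts, COA1 ENST00000223336 was at 8.90 and 4.64 FPKM after knockdown and at 3.20 and 1.72 FPKM in the controls, with a log2 difference of 1.14 (limma adjusted p = 0.658). The other tested COA1 transcript, ENST00000310564, had a difference of -0.02. The retained-intron transcript ENST00000437995 of SURF1 was at 3.73 and 1.21 FPKM after knockdown and at 0.730 and 0.427 FPKM in the controls, with the protein-coding ENST00000371974 at a log2 difference of 0.08. COX15 ENST00000016171 was at 5.67 and 6.91 FPKM after knockdown and at 8.68 and 9.31 FPKM in the controls, with a log2 difference of -0.46 (limma adjusted p = 0.677), while its second transcript, ENST00000370483, differed by 0.09. None of these passed the test.

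Some of these genes share sequence with others, so that the origin of the reads behind their values is uncertain. The leading COX11 transcript matched the processed pseudogene COX11P1 over 835 bases at 94.8% identity, and it overlaps TOM1L1 on the opposite strand over 724 bases. The leading COX17 transcript matched the pseudogene COX17P1 over 192 bases at 97.9% identity. COX10 shares 237 bases with CDRT1 and COX15 shares 627 bases with AL133353.2. SCO1 matched transcripts of 85 genes at 90% identity or more, none at 95% or more. The longest of these matches covered just 310 of the 9612 bases of its leading transcript.

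A further list of 24 assembly and translation factors of complex IV was all tested. None was called, and the smallest adjusted p was 0.256. An unadjusted p under 0.05 was found for 6 of the 24, of which 4 were higher and 2 lower in sh-MFAP2, beside 12.3% of all genes tested, of which 384 were higher and 830 lower. The median log2 difference of the list was -0.003, compared with -0.05 over all genes tested. The count of 6 moved when single libraries were left out, and so did the share over all genes. COA6, which acts with SCO1 and SCO2 on copper delivery to MT-CO2, was at 25.4 and 26.9 FPKM after knockdown and at 14.9 and 12.3 FPKM in the controls. Its log2 difference was 0.90 (SE 0.141, limma adjusted p = 0.256), and both knockdown libraries lay well above both controls. COA5, a factor of early assembly, was at 0.598 and 0.992 FPKM after knockdown and at 2.32 and 2.22 FPKM in the controls (log2 difference -0.87, SE 0.152, limma adjusted p = 0.297). COA7, a protein of the intermembrane space, was at 1.56 and 1.83 FPKM against 3.13 and 3.33 FPKM (log2 difference -0.65, SE 0.113, limma adjusted p = 0.294). With each of the 4 libraries omitted, the log2 differences ran from 0.77 to 1.03 for COA6, from -1.03 to -0.71 for COA5 and from -0.72 to -0.58 for COA7, a direction that groups without overlap fix in advance.

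The others with an unadjusted p under 0.05 were smaller in size. FDXR, the reductase that feeds electrons towards heme a synthesis, was at 13.4 and 12.5 FPKM after knockdown and at 9.47 and 8.16 FPKM in the controls (log2 difference 0.51, limma adjusted p = 0.352). COA4 was at 26.9 and 28.7 FPKM against 22.8 and 21.5 FPKM (log2 difference 0.32, limma adjusted p = 0.399). PET100, a factor of MT-CO2 assembly, was at 4.56 and 5.58 FPKM against 3.33 and 3.80 FPKM (log2 difference 0.41, limma adjusted p = 0.403). TACO1, an activator of MT-CO1 translation named here after its values were seen, was at 6.20 and 20.4 FPKM after knockdown and at 14.7 and 13.4 FPKM in the controls. As with COX10, its lowest and highest values were both in knockdown libraries, with a log2 difference of -0.28 (limma adjusted p = 0.850).

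Of the 15 nuclear-encoded subunit genes, 11 were tested and none was called or had an unadjusted p under 0.05. All 11 log2 differences were above 0, from 0.003 to 0.44, with a median of 0.11 and a smallest adjusted p of 0.415. Over all 9873 genes tested, 4151 differences were above 0 and the median was -0.05. COX6B1 was at 300.5 and 324.7 FPKM after knockdown and at 263 and 228 FPKM in the controls (log2 difference 0.35, limma adjusted p = 0.415). COX6A1 was at 208 and 259 FPKM against 199 and 183 FPKM (log2 difference 0.28, limma adjusted p = 0.512), and COX7B at 43.7 and 61.4 FPKM against 38.8 and 46.3 FPKM (log2 difference 0.29, limma adjusted p = 0.601). Without sh-MFAP2 replicate 2 the median over the 11 was -0.13, compared with -0.07 over all genes tested. Without sh-MFAP2 replicate 1 it was 0.36, compared with -0.03 over all genes tested. The count at an unadjusted p under 0.05 also moved in that fit, as did the share over all genes. The 4 genes not tested were COX4I2 and COX6A2, listed at 0 in all libraries, and COX6B2 and COX7A1, at 0.122 FPKM or less. MT-CO1 and MT-CO3 were listed at 0 in all 4 libraries and MT-CO2 was listed at 0.000919 FPKM in sh-MFAP2 replicate 2 and at 0 elsewhere, so the table gives no usable level for the catalytic core.

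**Figure D4:**
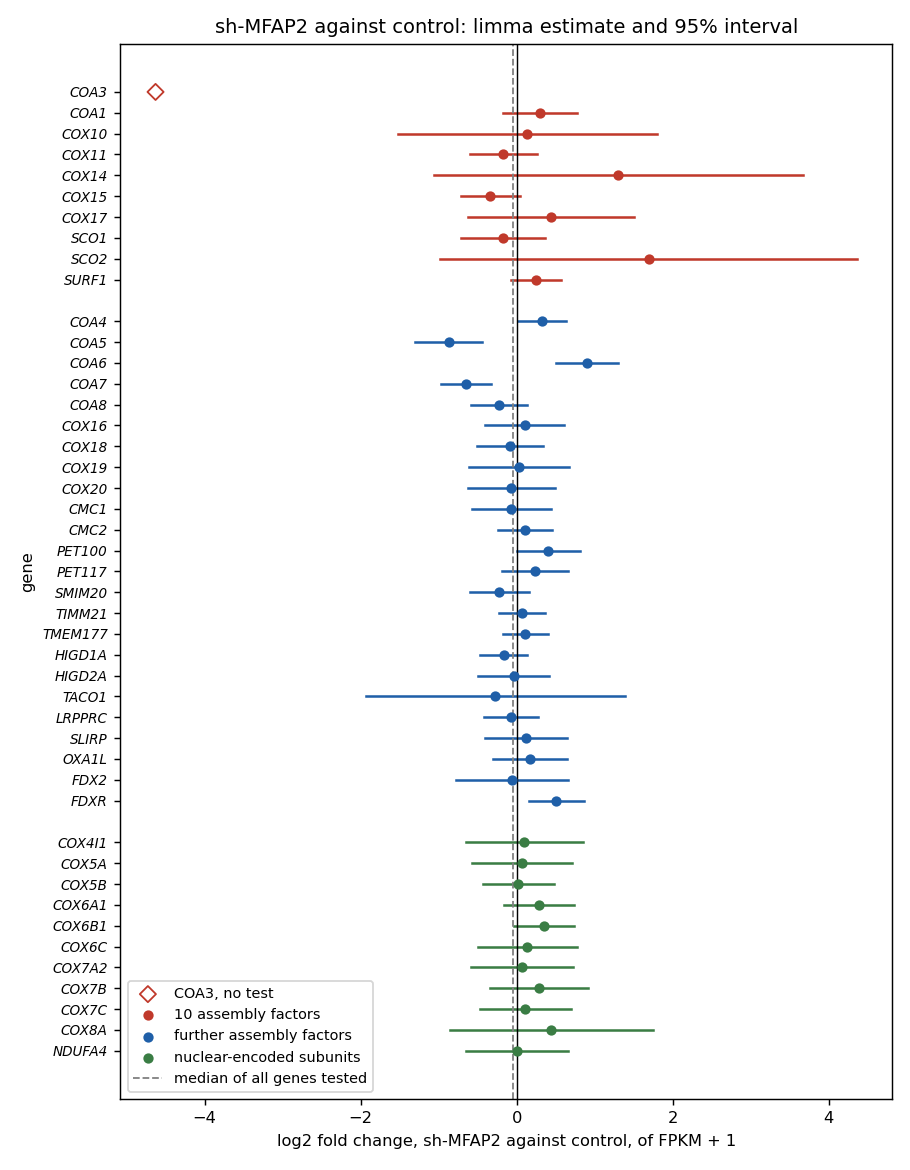
Log2 fold changes of FPKM + 1, sh-MFAP2 against control, for the assembly factors, the further factors and the nuclear-encoded subunits, with 95% limma intervals. COA3, at -4.63, is drawn open and without an interval, and COX14, SCO2, COX10 and TACO1 have the widest intervals.

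The direction shared by the subunits moved with a single library. Of all 9873 genes, 23.9% had their highest value in sh-MFAP2 replicate 2. This share was 58.1% of the 892 genes whose leading transcript is shorter than 1000 bases, a limit set after seeing the data. It was 10 of the 11 subunits (90.9%), 15 of the 24 further factors (62.5%) and 5 of the 9 assembly factors without COA3. The leading transcript was that short in 7, 8 and 3 of them. The part of this library in the group medians was not tested beyond leaving it out. That gave a median of 0.05 for the 9 assembly factors and -0.11 for the further factors, compared with -0.07 over all genes tested.

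**Figure D5:**
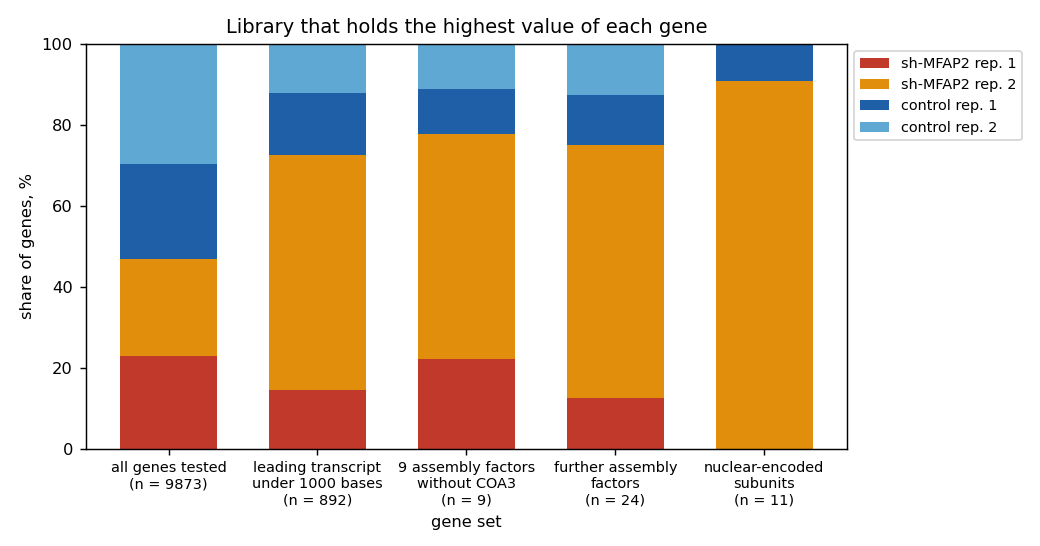
Share of genes, in %, whose highest value lies in each of the 4 libraries, for all genes tested, genes with a short leading transcript and the 3 lists. The segment of sh-MFAP2 replicate 2 is 23.9% over all genes, 58.1% over short genes and 90.9% over the nuclear-encoded subunits.

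MFAP2, the target of the hairpin, had 0 FPKM in each knockdown library and 0.0116 and 0.0138 FPKM in the controls, too low to check the labels. The authors report that they checked the stable knockdown line by western blot and quantitative PCR, which was not examined here. The epithelial markers EPCAM, KRT8, KRT18, KRT19 and CDX2 were present in all 4 libraries, while CLDN4 was at 47.1 and 0.0151 FPKM after knockdown and 0.291 and 0.551 FPKM in the controls. Of 11 markers of fibroblasts, leukocytes and endothelium, 9 were at 0.0656 FPKM or less in each library. The other two were COL1A1, at 2.27 and 2.07 FPKM against 4.36 and 4.92 FPKM, and CD68, at 3.13 and 3.12 FPKM against 7.85 and 7.20 FPKM. Both were lower in sh-MFAP2 without overlap of the groups, as were COA3 and 31.4% of all genes tested. Their part in the values of the assembly factors was not tested. In RNA from whole cultures, fewer cells of a type and less RNA per cell cannot be told apart.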

How the data were processed

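RNA of 4 AGS libraries was sequenced, 2 per group, and grouped by the labels. The authors deposited a table of gene values and one of transcript values, 1 column per library. These deposited values were taken as FPKM from their behaviour, since no unit is named. The labels' processing notes name hg38. The aligner, estimator and annotation are not given in the sources used here. Depth was inferred from the spacing of low values as 54600000 to 75300000 counting units per library; whole steps held just 62.0% to 64.2% of low values (within 0.05 of a step; 10% by chance), so no count test was run.

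The 9873 genes whose mean reached 1 FPKM were tested as log2(FPKM + 1) with limma 3.58.1 (lmFit, eBayes with trend) in R 4.3.3, Benjamini-Hochberg adjusted over all genes, with calls at p under 0.01 and adjusted p under 0.05. With 2 libraries per group an exact two-sided permutation test cannot go below 0.333. The scripts were tested on simulated data. The members and lists were chosen with earlier results of these data known. Named were all members, list genes with an unadjusted p under 0.05 or else the 3 with the smallest p, the mitochondrially encoded subunits, MFAP2, neighbours of COA3 and the 5 nearest profiles. The list names COA8 and FDX2 stand in the table as APOPT1 and FDX1L.

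Of 47251 gene identifiers, 43715 were found in GENCODE 29, the source of positions. Leading transcripts were compared with its transcripts by blastn 2.17.0 (90% identity, 100 bases). Promoters came from RefSeq (GRCh38.p14). Python 3.11.15, pandas 2.3.3, numpy 2.4.6 and matplotlib 3.10.9 were used. Alternatives were other filters, pseudocounts, scalings, a replicate block, no trend, transcript sums and leaving out each library.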

Additional observations from a re-analysis of the deposited data

How the results depend on the processing

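No gene of the 3 lists was called under any alternative run, namely other filters on low values, another pseudocount, quantile or median-of-ratios scaling, no variance trend, transcript sums (9 assembly factors only) or leaving out each library in turn (0 calls in each list). Transcripts were run with the other filters, the pseudocount and each library left out, and 0 were called. The number called over all genes ranged from 28 without the trend to 9 at a minimum mean of 5 FPKM, 6 without the filter and 0 with any library left out; over all transcripts it was 5 with a pseudocount of 0.1 and 1 at a minimum mean of 5 FPKM. At an unadjusted p under 0.05 the further factors gave 6 genes, and the 9 assembly factors and the subunits 0. Over all genes this number was 1214 of 9873. These unadjusted counts moved with single libraries, and so did the number over all genes. With median-of-ratios scaling the subunits gave 1, beside 1118 of 9873 genes. The further factors gave 4 with the replicate block, beside 722 of 9873 genes. At a minimum mean of 5 FPKM they gave 3 of the 15 tested, beside 670 of 5759 genes.

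With the replicate number as a block, 0 genes and 0 transcripts of any list were called, and 0 genes in all, against 27 without the block. Deviations of same-numbered libraries correlated at -0.0572 over the 9873 genes, so replicate numbers were not taken as pairs.

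Over the fits without 1 library, the log2 difference of COX10 ran from -0.65 to 0.93, that of COX17 from -0.0328 to 0.914, that of SCO1 from -0.397 to 0.0507 and that of TACO1 from -1.06 to 0.51. The direction reversed for COX10, COX17 and SCO1 without sh-MFAP2 replicate 2 and for TACO1 without sh-MFAP2 replicate 1; the cause was not tested. COA3 ran from -4.72 to -4.54 with a library left out, a direction that its choice by these values fixes in advance. It was -6.81 with a pseudocount of 0.1, which enlarges differences near 0. With no read counts, values near 0 have no interval.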
